A study of Mus musculus with 24 samples.

Results

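The genes described here were 10 genes of the Wnt pathway: 4 Wnt ligands (Wnt2, Wnt5a, Wnt5b and Wnt9a), 4 secreted modulators of Wnt signalling (Sfrp1, Sfrp2, Dkk2 and Dkk3) and 2 genes that act on the receiving side (Axin2 and Lef1). They were chosen by name, and all 10 were found among the 22350 protein-coding genes of the mm9 annotation on chromosomes present in every list. Each gene was read over its body with 10 kb on each side, for trimethylated H3K4 (H3K4me3, a mark of promoters), acetylated H3K27 (H3K27ac, a mark of active promoters and enhancers) and Prrx1 binding. These had been profiled by ChIP-seq in cultured mouse fibroblasts with and without functional Prrx1, a homeodomain transcription factor of mesenchymal cells. There were 24 samples, of which 17 had a peak list and 7 were inputs.

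The comparison covered 3 fibroblast types, and all had been immortalised with papillomavirus E6 and E7. MEF came from C57BL/6 embryos taken between days 10 and 13, and were WT, SG or KI. MMTV-CAF came from breast tumours of MMTV-PyMT mice on the FVB/NJ background, and were WT or SG. Wound-healing fibroblasts, called wound fibroblasts below, came from dorsal skin wounds of C57BL/6 mice on day 10, and were WT or SG. SG denotes deletion of Prrx1 with CRISPR/Cas9 and a guide RNA, with cells carrying the control guide SgNS as the WT. KI denotes MEF from Prrx1 mutant mice (129S-Prrx1tm1Jfm/Mmmh in the labels), which by the study's methods carry lacZ inserted into Prrx1 and were backcrossed to C57BL/6. Strain and fibroblast type cannot be told apart for MMTV-CAF. Each mark in each group was 1 library, so differences below are between single lists, without a replicate error and without p-values. The MEF KI and MEF SG lists were both compared with the same WT list.

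Wnt ligands are secreted lipid-modified glycoproteins that bind Frizzled receptors. In the canonical branch, Wnt binding to Frizzled and Lrp5 or Lrp6 stabilises beta-catenin, which acts with TCF and LEF factors on target genes. Wnt5a and Wnt5b are best known for beta-catenin-independent signalling, which guides cell movement and polarity. Sfrp proteins bind Wnt ligands outside the cell, and Dkk2 binds the Lrp coreceptors. Dkk3 is a divergent Dickkopf protein. Axin2 is a scaffold of the beta-catenin destruction complex and a widely used Wnt target, and Lef1 is one of the nuclear partners of beta-catenin. Fibroblasts are a known source of both Wnt ligands and Sfrp proteins in skin and in tumour stroma.

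The lists differed in size and strength. The 7 H3K27ac lists held 29325 to 61603 summits, the 7 H3K4me3 lists 13125 to 29166 regions and the 3 Prrx1 lists 3048 to 8000 summits. MEF KI gave the smallest list of both histone marks, with a median −log10 p of 11.9 for H3K27ac and 9.93 for H3K4me3, against 18.5 and 28.6 in MEF WT. Of 10 fibroblast markers, 7 (MEF KI) to 10 had an H3K4me3 region over a transcription start site (TSS), against 0 or 1 of 6 epithelial, 0 or 1 of 4 endothelial and 0 of 4 leukocyte markers. The epithelial and endothelial genes marked were Cdh1 and Kdr. H3K27ac separated the markers less sharply. A summit in the gene and its flanks was listed at all 10 fibroblast markers in each list. It was also listed at 1 to 3 epithelial, 1 to 3 endothelial and 1 or 2 leukocyte markers, and at 52.3% to 64.3% of all genes.

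At promoters, 9 of the 10 genes carried an H3K4me3 region over an annotated TSS in each WT list, and the exception in all 3 was Dkk3. Over all protein-coding genes the share was 53.1% for WT MEF, 52.4% for WT MMTV-CAF and 54.7% for WT wound fibroblasts. In MEF without functional Prrx1 the number was 5 of 10 for KI and 5 of 10 for SG, against 41.5% and 51.4% of all genes. It was 8 of 10 in MMTV-CAF SG (53.0% of all genes) and 9 of 10 in wound SG (55.3%). Wnt5a, Wnt9a and Axin2 were marked in all 7 lists, which 39.7% of all genes were. Of the 9 promoters marked in MEF WT, 4 had no region over a TSS in KI (Wnt2, Sfrp1, Dkk2 and Lef1; 22.6% of all genes marked in WT) and 4 had none in SG (Wnt2, Sfrp1, Sfrp2 and Dkk2; 4.03%). The WT regions of Wnt2, Sfrp2, Sfrp1 and Dkk2 were weak, with −log10 p of 3.61, 7.09, 9.29 and 11.7 against a list median of 28.6. That of Lef1 had 24.3. The shares over all genes were not matched for strength. At a −log10 p of at least 10, 6 members were marked in MEF WT, 4 in SG and 0 in KI. At Dkk2, Lef1 and Sfrp2 a narrower region remained near the TSS without covering it. The Dkk2 region began 0.0130 kb inside the TSS in KI and 0.148 kb inside it in SG, the Lef1 region 0.245 kb inside it in KI, and the Sfrp2 region ended 0.158 kb before it in SG. The Dkk2 region measured 1201 bp in KI and 860 bp in SG, against 2682 bp in WT. The Lef1 region measured 746 bp in KI against 2577 bp in WT, and the Sfrp2 region 327 bp in SG against 1176 bp. When a region within 1 kb of a TSS was counted, a choice made after these values were seen, the genes without their WT region were Wnt2 and Sfrp1 in KI (10.1% of all genes) and Wnt2, Sfrp1 and Dkk3 in SG (3.43%). In MMTV-CAF SG the one gene without its WT region over a TSS was Wnt5b (2.67% of all genes), and in wound SG there was none (2.43%).

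**Figure D1:**
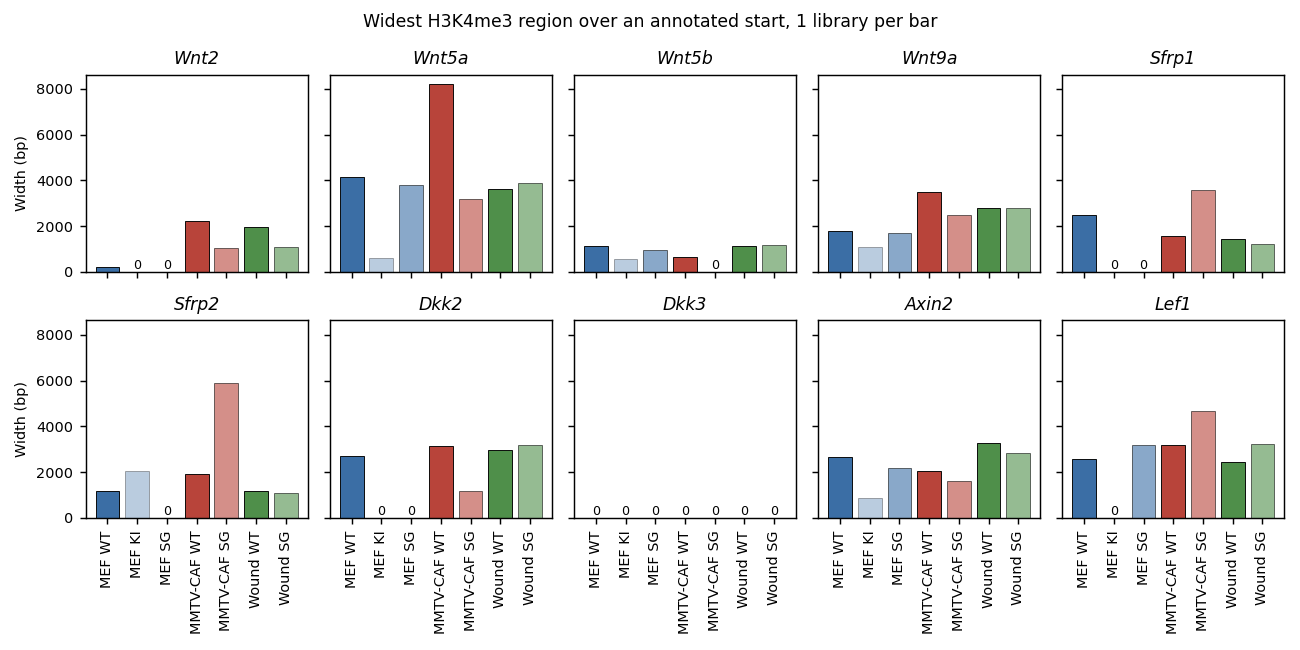
Width in bp (y axis) of the widest H3K4me3 region over an annotated TSS of each gene in each of the 7 lists (x axis), 1 library per bar, with blue for MEF, red for MMTV-CAF, green for wound fibroblasts and paler bars for KI and SG. Wnt5a reached 8220 bp in MMTV-CAF WT and Sfrp2 5878 bp in MMTV-CAF SG, and Dkk3 was at 0 in all 7 lists.

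The 8 starts with the sequence of a CpG island, taken as 1 kb around the gene start with at least 50% G and C and a CpG content of at least 0.6 of that expected, were those of all genes except Dkk2 and Dkk3. Their CpG ratios were 0.48 (Dkk2) and 0.42 (Dkk3), against 0.62 (Wnt2) to 1.04 (Sfrp1) for the others. Of all coding genes, 44.2% had such a start. In MEF WT 89.8% of genes with a CpG-rich start carried H3K4me3 over a TSS, against 24.0% of the others, and all 8 CpG-rich members were marked in each WT list. Genes with a CpG-rich start were marked at a similar rate in MMTV-CAF WT (87.0%) and wound WT (92.2%). Dkk2 was marked in all 3 WT lists in spite of its low CpG content.

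Wnt5a (ENSMUSG00000021994.8, chromosome 14, 29317936 to 29340633, plus strand) had the widest promoter region of the 4 ligands in each list except MEF KI, where that of Wnt9a was wider. Its widest H3K4me3 region over a TSS measured 4145, 620 and 3810 bp for MEF (WT, KI, then SG), 8220 and 3201 bp for MMTV-CAF (WT, then SG) and 3604 and 3877 bp for wound fibroblasts (WT, then SG). The fold enrichment over input was 6.34, 3.02 and 6.75 in MEF, 9.70 and 4.33 for MMTV-CAF, and 8.35 and 10.4 for wound fibroblasts. The KI and MMTV-CAF SG values were thus low on both measures, and MEF SG and wound SG stayed near their WT lists. KI also listed a region of 1349 bp with a fold of 2.91 that began 0.0350 kb inside the next start and covered none, so the KI mark was broken up as well as narrower. The MMTV-CAF WT region covered all 6 annotated starts of the gene, whereas in the other WT lists the upstream and downstream starts lay in separate regions. In MMTV-CAF SG the downstream starts were bare. Relative to the median change of all genes, the log2 width ratio was −2.41 in KI (percentile 0.2 of 9192 genes marked in both lists) and −1.31 in MMTV-CAF SG (percentile 0.6 of 11405), and it was −0.03 in MEF SG and −0.07 in wound SG. Regions over 4 kb were found at Wnt5a in MEF WT (5.02% of all genes) and MMTV-CAF WT (15.2%), and at Sfrp2 and Lef1 in MMTV-CAF SG (12.8%). No member had one in MEF KI (1.49%), MEF SG (3.60%), wound WT (4.83%) or wound SG (8.59%).

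H3K27ac at Wnt5a was absent in KI and MMTV-CAF SG. MEF had 4 summits as WT, none as KI and 3 as SG, MMTV-CAF had 3 as WT and none as SG, and each wound list had 3. Of the 3 wound WT summits 1 recurred within 500 bp in wound SG, whose other 2 lay at the downstream starts. The summed −log10 p of these summits was 85.2, 0 and 69.3 in MEF, 89.1 and 0 for MMTV-CAF, and 51.5 and 55.4 for wound fibroblasts. After division by the list totals the log2 ratio was −0.64 in MEF SG (percentile 8.1, past 1.5-fold, and −0.30 undivided) and −0.57 in wound SG (not past it, and 0.11 undivided). No H3K27ac summit was listed anywhere in the gene and its flanks in KI or MMTV-CAF SG. The strongest site, 0.149 kb into the first exon, was shared by the other 5 lists. Genes that went from at least 3 summits in WT to 0, a criterion set after these values were seen, made up 7.84% of eligible genes for KI and, among the SG lists, 0.690% for MEF, 0.927% for MMTV-CAF (70 of 7555) and 0.141% for wound fibroblasts. Among the members these were Wnt5a in KI and Wnt5a and Dkk2 in MMTV-CAF SG. The Dkk2 summits of MMTV-CAF WT were weak, with −log10 p of 6.54 to 10.4, below the list median of 16.3.

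**Figure D2:**
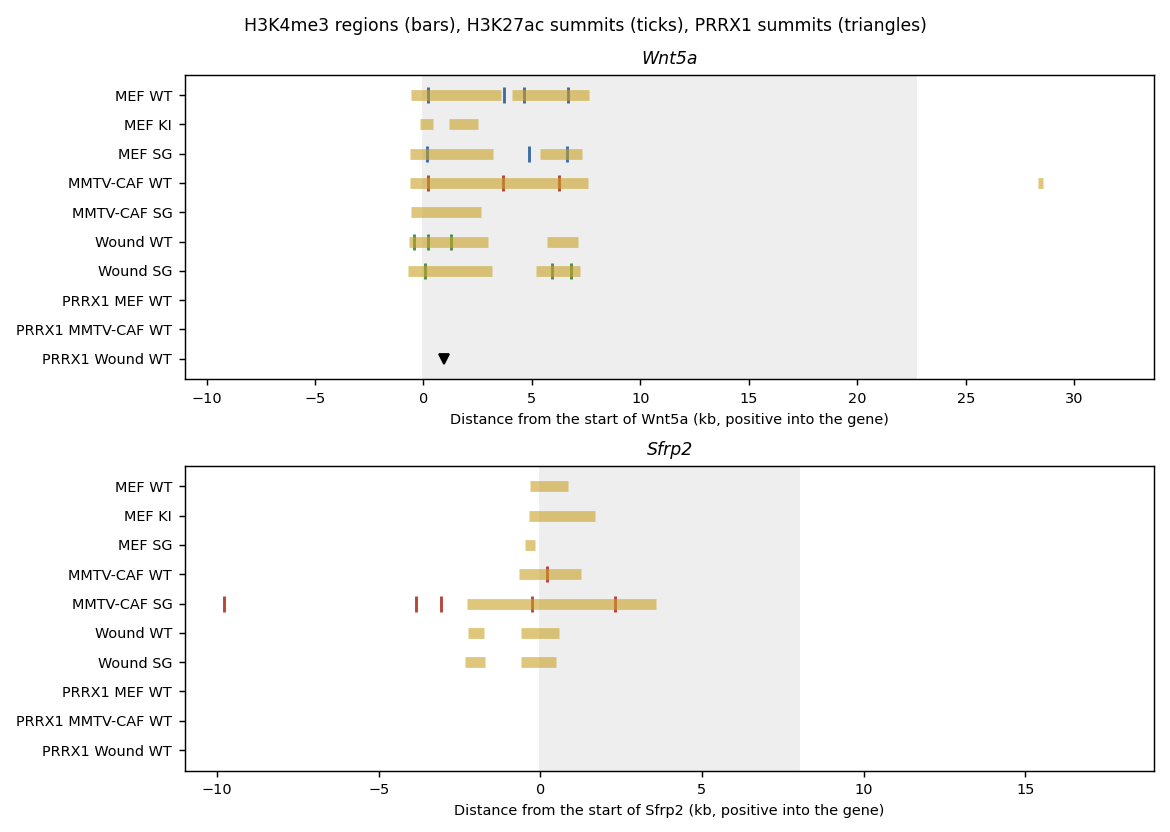
H3K4me3 regions (bars), H3K27ac summits (ticks, coloured by fibroblast type) and Prrx1 summits (triangles) at Wnt5a and Sfrp2, 1 library per row, by distance in kb from the gene start, with the gene body shaded. At Wnt5a the rows of MEF KI and MMTV-CAF SG hold 0 H3K27ac summits, and at Sfrp2 the MMTV-CAF SG row holds 5 summits against 1 in WT.

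Wnt2 (ENSMUSG00000010797.2, chromosome 6, 17938940 to 17980585, minus strand), a canonical ligand, carried wider H3K4me3 outside MEF. Its region over a TSS was 235 bp wide in MEF WT and absent in KI and SG, 2206 and 1035 bp for MMTV-CAF (WT, then SG), and 1951 and 1093 bp for wound fibroblasts (WT, then SG). The MEF WT region was weak, with a fold of 2.13 and a −log10 p of 3.61, near the lowest of its list (3.03). MEF WT had a second region of 589 bp 0.888 kb upstream and MEF SG one of 361 bp 1.15 kb upstream, on a stretch that the MMTV-CAF WT and wound WT regions covered, and KI had none. The SG lists of MMTV-CAF and wound fibroblasts were narrower than their WT, with relative log2 ratios of −1.04 and −1.02 (percentiles 1.2 and 0.8), while the fold hardly moved (4.45 and 4.29, then 4.26 and 4.73). H3K27ac was sparse, with 1, 0 and 0 summits in MEF, 2 and 1 in MMTV-CAF and 0 in both wound lists. Against MEF WT the width was higher by a relative log2 ratio of 2.83 in MMTV-CAF WT and 3.11 in wound WT, which set Wnt2 at percentiles 99.9 and 100.0 of all genes marked in both. These ratios leave out the upstream MEF WT region, and over the whole window the regions summed to 824 bp in MEF WT, 3095 bp with MMTV-CAF WT (889 bp of it 51.0 kb from the start) and 1951 bp with wound WT.

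Wnt9a (ENSMUSG00000000126.5, chromosome 11, 59120430 to 59147054, plus strand) was marked in every list. The region measured 1792, 1099 and 1704 bp in MEF WT, KI and SG, 3477 and 2501 bp for MMTV-CAF (WT, then SG), and 2782 and 2812 bp for wound fibroblasts (WT, then SG). The values were highest in MMTV-CAF WT. Relative to the median change, no KI or SG list passed 1.5-fold against its WT, but KI did without that division (log2 ratios of −0.38 and −0.71). H3K27ac counts were 2, 0 and 3 in MEF, 5 and 2 for MMTV-CAF, and 1 and 1 for wound fibroblasts, where the WT summit (59120650) and the SG summit (59122317) were different sites. The summed −log10 p fell from 63.8 to 32.1 in MMTV-CAF SG, a log2 ratio of −1.28 after division by the list totals and −0.99 without it.

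Wnt5b (ENSMUSG00000030170.7, chromosome 6, 119382549 to 119494336, minus strand) shares its window with another promoter. Fbxl14, which encodes an F-box protein, lies inside the Wnt5b gene on the opposite strand, and its own H3K4me3 region measured 3417 to 5371 bp in the 7 lists. At Wnt5b itself the region lay at the outermost start and was 1129, 563 and 973 bp in MEF WT, KI and SG, 647 bp and absent for MMTV-CAF (WT, then SG), and 1123 and 1178 bp for wound fibroblasts (WT, then SG). MMTV-CAF SG instead listed a region of 1426 bp with a fold of 7.99 at 2.13 kb from an internal Wnt5b start, where MMTV-CAF WT had 641 bp with a fold of 3.23. The window held 4, 3 and 7 H3K27ac summits in MEF, 4 and 14 for MMTV-CAF, and 2 and 6 for wound fibroblasts. None of them lay within 1 kb of a Wnt5b start. Without the summits within 1 kb of the Fbxl14 start, the counts were 2, 2 and 5, then 3 and 12, then 0 and 5. The higher counts in MMTV-CAF SG and wound SG were thus present without the Fbxl14 start, although a site 15.5 kb upstream of an internal Wnt5b start lies in the Fbxl14 body. A site 2.77 kb upstream of an internal Wnt5b start was listed in these SG libraries alone.

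Sfrp1 (ENSMUSG00000031548.7, chromosome 8, 24521974 to 24560104, plus strand) was marked in 5 of 7 lists. Its region measured 2484 bp in MEF WT and was absent in KI and SG, measured 1566 and 3572 bp for MMTV-CAF (WT, then SG), and 1419 and 1228 bp for wound fibroblasts (WT, then SG). The MEF and MMTV-CAF lists thus moved in opposite directions. In MMTV-CAF SG the relative log2 ratio was 1.24 (percentile 98.7), the fold rose from 4.55 to 8.66, and the only H3K27ac summit at Sfrp1 in any list appeared 0.231 kb into the gene with a −log10 p of 28.9. A first H3K27ac summit where WT had none was found at 10.7% of all genes in this comparison.

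Sfrp2 (ENSMUSG00000027996.7, chromosome 3, 83570243 to 83578238, plus strand) showed the largest gain among the members. Its promoter region measured 1176, 2052 and 0 bp in MEF WT, KI and SG, 1914 and 5878 bp for MMTV-CAF (WT, then SG), and 1173 and 1081 bp for wound fibroblasts (WT, then SG). In MEF SG a region of 327 bp ended 0.158 kb before the start. The fold was 2.70 and 2.64 in MEF WT and KI, 6.63 and 12.1 for MMTV-CAF, and 4.79 and 5.14 for wound fibroblasts. MMTV-CAF SG stood above every other list on both measures, with a relative log2 width ratio of 1.67 (percentile 99.4). H3K27ac was listed in MMTV-CAF alone, with 1 summit in WT and 5 in SG. The summed −log10 p rose from 9.14 to 157, a log2 ratio of 3.81 after division by the list totals and 4.10 without it (percentile 99.9 of 13469 genes). The promoter site alone went from 9.14 to 112. With nearby summits stitched together, the cluster at Sfrp2 ranked 17588 of 18506 in MMTV-CAF WT and 930 of 19061 in SG, where it joined 10 summits over 29.2 kb and passed the slope threshold for a super-enhancer, a large cluster of enhancers. Only 5 of these 10 summits lay in the gene and its flanks. Super-enhancers of MMTV-CAF SG reached 10.5% of all genes, and at the stricter limit of the 500 top clusters Sfrp2 was not among them. No member had a super-enhancer in MEF WT (10.4% of all genes), MEF SG (11.5%), wound WT (7.40%) or wound SG (11.9%).

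Dkk2 (ENSMUSG00000028031.5, chromosome 3, 131748256 to 131843257, plus strand) had a promoter region of 2682 bp in MEF WT, 3148 and 1156 bp for MMTV-CAF (WT, then SG), and 2945 and 3162 bp for wound fibroblasts (WT, then SG). In KI and MEF SG the regions of 1201 and 860 bp lay just inside the gene without covering the start. MMTV-CAF SG was lower than its WT in width (relative log2 ratio −1.39, percentile 0.5) and in fold (7.98 against 4.27). H3K27ac counts were 1, 1 and 0 in MEF, 4 and 0 for MMTV-CAF, and 3 and 3 for wound fibroblasts. The 4 summits of MMTV-CAF WT had −log10 p of 6.54 to 10.4. In wound WT all 3 summits lay within 2.05 kb of the start, and in SG the 3 lay between 19.8 and 33.0 kb into the gene, so that the equal counts stood for different sites.

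Dkk3 (ENSMUSG00000030772.5, chromosome 7, 119259533 to 119302571, minus strand) differed from the other members in that none of the 7 lists had H3K4me3 over its single annotated start. The nearest regions lay 0.418 kb inside the gene in MEF WT (1205 bp), 0.707 kb in KI (1213 bp) and 1.14 kb in wound WT (354 bp). Its body was nevertheless rich in H3K27ac. MEF had 7, 11 and 5 summits (WT, KI, then SG), and there were 16 and 10 for MMTV-CAF (WT, then SG), and 3 and 6 for wound fibroblasts (WT, then SG). The summed −log10 p was 106, 118 and 91.2, then 330 and 157, then 36.1 and 103. MMTV-CAF WT was highest and wound WT lowest. Removal of Prrx1 was accompanied by a lower sum in MMTV-CAF (log2 ratio −1.37 relative to the list totals, −1.07 without that division) and a higher sum in wound fibroblasts (0.83 and 1.51). In MEF KI the relative ratio was 1.67 but the undivided one 0.16, since the KI list summed to much less in all, and in MEF SG the ratios were −0.55 and −0.21.

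The Dkk3 summits formed a super-enhancer in 2 lists. The cluster joined 16 summits over 37.7 kb in MMTV-CAF WT, where it ranked 397 of 18506, and 11 summits over 28.7 kb in MEF KI, where it ranked 317 of 13518. Super-enhancers reached 10.9% of all genes in MMTV-CAF WT and 4.06% in MEF KI. In MMTV-CAF SG the cluster ranked 2747 with 10 summits, of which 2 were absent from WT, and 7 of the 16 WT summits were kept. In the other lists it ranked from 2784 (wound SG) to 6495 (wound WT). Joined within 500 bp over all lists, the Dkk3 summits made 18 sites. One of them, centred 20.3 kb into the gene, drew summits from all 7 lists, but as a chain of neighbours: no single summit there had all the lists within 500 bp, and those of wound WT and wound SG lay further apart than that. There were 8 sites present in 1 list only.

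**Figure D3:**
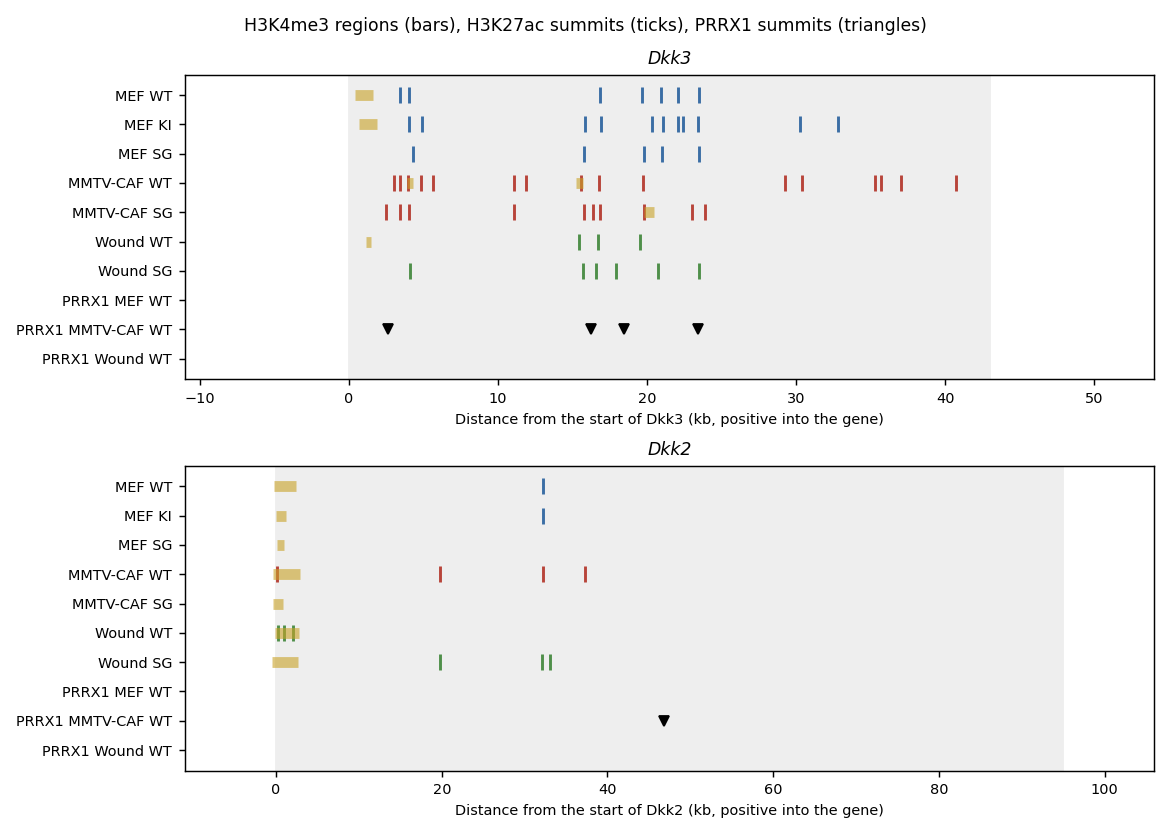
H3K4me3 regions (bars), H3K27ac summits (ticks, coloured by fibroblast type) and Prrx1 summits (triangles) at Dkk3 and Dkk2, 1 library per row, by distance in kb from the gene start, with the gene body shaded. At Dkk3 the MMTV-CAF WT row holds 16 H3K27ac summits spread over the gene body, its Prrx1 row holds 4 summits, and at Dkk2 the MMTV-CAF SG row holds 0 H3K27ac summits.

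Axin2 (ENSMUSG00000000142.9, chromosome 11, 108781663 to 108812097, plus strand) kept a promoter region in all 7 lists. The region measured 2655, 877 and 2180 bp in MEF WT, KI and SG, 2030 and 1598 bp for MMTV-CAF (WT, then SG), and 3286 and 2852 bp for wound fibroblasts (WT, then SG). KI was the low value (relative log2 ratio −1.27, percentile 2.7), and the 3 SG lists stayed within 1.5-fold of WT. One promoter site, 0.203 kb from a start, carried H3K27ac in the 6 lists other than KI, with a −log10 p of 44.2 in MEF WT and 87.5 in SG, and 26.5 and 35.8 for wound fibroblasts (WT, then SG). Both MMTV-CAF lists were lower, at 16.1 in SG and below that in WT, and the summed score of MMTV-CAF WT against MEF WT had a log2 ratio of −1.93 relative to the list totals and −1.66 without that division.

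Lef1 (ENSMUSG00000027985.8, chromosome 3, 130813389 to 130927274, plus strand) had its strongest promoter in MMTV-CAF. The region measured 2577 bp in MEF WT and 3177 bp in SG, 3173 and 4669 bp for MMTV-CAF (WT, then SG), and 2448 and 3206 bp for wound fibroblasts (WT, then SG). In KI a region of 746 bp lay just inside the start. The fold enrichment was 4.32 and 5.24 in MEF WT and SG, 15.6 and 19.8 for MMTV-CAF, and 8.10 and 6.24 for wound fibroblasts. All 3 SG regions were wider than WT, with relative log2 ratios of 0.39, 0.61 and 0.21, and the one in MMTV-CAF passed 1.5-fold, although its undivided ratio of 0.56 did not. H3K27ac was listed as 0, 0 and 1 summit in MEF, 2 and 2 for MMTV-CAF, and 0 and 1 for wound fibroblasts.

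Across the members, H3K4me3 width passed 1.5-fold between SG and WT most often in MMTV-CAF. There, 3 of 8 genes marked in both lists were narrower (Wnt2, Wnt5a and Dkk2; 4.80% of all genes) and 3 were wider (Sfrp1, Sfrp2 and Lef1; 5.59%). The median relative log2 ratio was −0.36 over these 8 genes and 0.00 over all genes. In MEF SG 0 of 5 moved in either direction (3.77% of all genes narrower and 0.904% wider), and in wound SG 1 of 9 was narrower (Wnt2; 3.27%) and 0 wider (6.08%). In MEF KI 3 of 5 were narrower (Wnt5a, Wnt5b and Axin2; 11.3%) and 1 was wider (Sfrp2; 1.62%).

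In MEF, H3K27ac was listed at 7 members with WT (61.5% of all genes), 3 with KI (52.3%) and 6 with SG (63.0%). With lists of equal size these were 4, 3 and 6. It was listed at 9 in MMTV-CAF WT (62.0%) and 8 in SG (64.3%), and at 6 in wound WT (58.2%) and 7 in SG (63.0%). Relative to WT, it was absent from Wnt2, Wnt5a, Wnt9a and Axin2 in KI (17.0% of all genes), from Wnt2 and Dkk2 in MEF SG (2.40%), from Wnt5a and Dkk2 in MMTV-CAF SG (2.80%) and from no member in wound SG (1.19%). It was present without a WT summit at Lef1 in MEF SG (7.50%) and wound SG (13.1%), at Sfrp1 in MMTV-CAF SG (10.7%) and at no member in KI (3.30%).

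For the summed H3K27ac score, 2 of 7 genes listed in both MMTV-CAF lists were higher in SG (Wnt5b and Sfrp2; 14.7% of all genes) and 2 were lower (Wnt9a and Dkk3; 15.9%). In wound SG 1 of 6 was higher (Dkk3; 12.7%) and 3 were lower (Wnt9a, Dkk2 and Axin2; 18.0%), but without division by the list totals 2 were higher and 0 lower, and Wnt9a and Axin2 turned to 0.03 and 0.01. In MEF SG 3 of 5 were higher (Wnt5b, Wnt9a and Axin2; 20.0%) and 1 was lower (Wnt5a; 9.24%), and this lower call did not pass without the division. In MEF KI all 3 members listed in both were higher relative to the totals (Wnt5b, Dkk2 and Dkk3; 17.3%) and 0 lower (29.9%), whereas the undivided log2 ratios were −0.31, −0.10 and 0.16. The list totals themselves differed by a log2 ratio of −1.52 for KI, 0.34 for SG of MEF, 0.29 for SG of MMTV-CAF and 0.68 for wound SG.

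**Figure D4:**
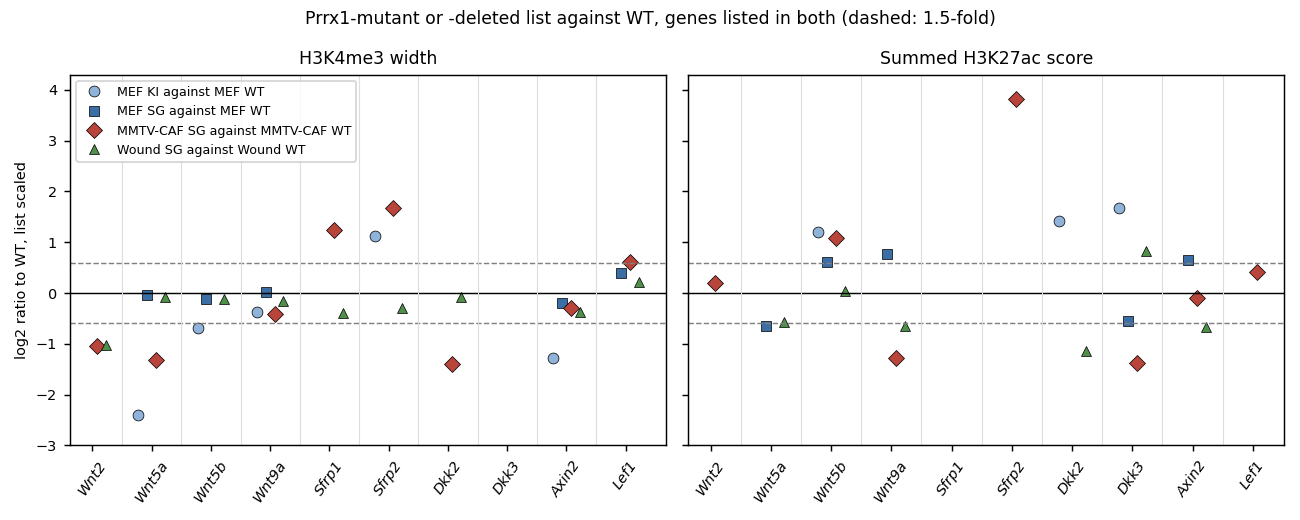
log2 ratio of each KI or SG list to the WT list of its type (y axis) for each gene listed in both (x axis), for H3K4me3 width divided by the median ratio of all genes (left) and for summed H3K27ac −log10 p divided by the list totals (right), 1 library per group, with dashed lines at 1.5-fold. Sfrp2 in MMTV-CAF stands highest, at 1.67 (left) and 3.81 (right), and genes absent from either list have no point.

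The positions of the summits were compared as well. Of the WT H3K27ac summits at the members, 44.7% (17 of 38, Wilson 95% interval 30.1 to 60.3) recurred within 500 bp in MMTV-CAF SG, against 65.9% over all coding windows. The share was 35.7% in wound SG (5 of 14, 16.3 to 61.2, against 68.1%), 65.0% in MEF SG (13 of 20, 43.3 to 81.9, against 71.4%) and 7 of 20 in MEF KI (18.1 to 56.7%, against 47.4%). Conversely, 76.2% of the wound SG summits at the members (16 of 21, 54.9 to 89.4) had no WT summit nearby, against 44.9% over all coding windows. It was 52.8% in MMTV-CAF SG (19 of 36, 37.0 to 68.0, against 40.9%), 46.7% in MEF KI (7 of 15, 24.8 to 69.9, against 27.7%) and 7 of 20 in MEF SG (18.1 to 56.7%, against 28.9%). Summits of 1 gene share their window, so these intervals cover counting error over summits only. The shares over all coding windows were not matched for summit strength. Most member summits lay below the median −log10 p of their list in MMTV-CAF WT (16.3) and wound WT (15.2). Whether strength accounts for the differences was not tested. Over the 7 lists the member windows held 62 sites. Of these, 30 (48.4%, 36.4 to 60.6) were listed in 1 library only, against 39.8% over all coding windows, and 2 (3.23%, 0.889 to 11.0) in all 7, against 9362 of 74639 over all coding windows. The 2 were the chained Dkk3 site named above and a site in the Wnt5b window beside the Fbxl14 start, where the summits of all lists lay within 500 bp of each other.

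**Figure D5:**
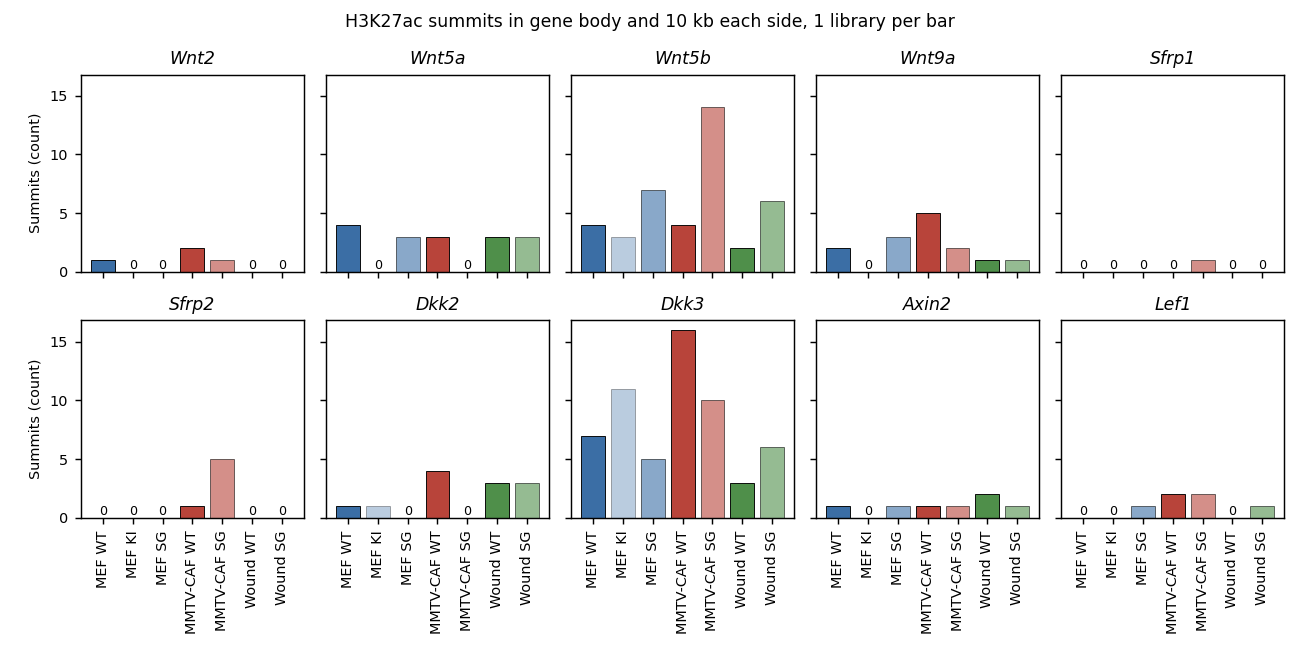
Number of H3K27ac summits (y axis) in each gene body with 10 kb on each side in each of the 7 lists (x axis), 1 library per bar, coloured as for the H3K4me3 widths. Dkk3 and Wnt5b held the most, with 16 at Dkk3 in MMTV-CAF WT and 14 at Wnt5b in MMTV-CAF SG, and Sfrp1 had a single summit, in MMTV-CAF SG.

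Prrx1 summits were listed at 3 of the 10 genes. In MEF no member had a Prrx1 summit (7.04% of all genes did), in MMTV-CAF 2 did (Dkk2 and Dkk3; 22.1%) and in wound fibroblasts 1 did (Wnt5a; 16.8%). No member was bound in all 3 types, which 2.95% of all genes were. The 5 summits in MMTV-CAF, 4 at Dkk3 and 1 at Dkk2, gave 0.684 summits per 100 kb of window, against 0.449 over all coding windows. At Dkk3 alone the density was 6.35. In wound fibroblasts it was 0.137 per 100 kb, against 0.314. None of the 6 summits had a Prrx1 summit of another fibroblast type within 500 bp.

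The sequences around these summits are shown because they are all of the Prrx1-bound DNA listed at the 10 genes. They were read from the plus strand of the mm9 reference, 100 bp to each side of the summit, with capitals for TAATTA, a palindromic word recognised by many homeodomain proteins. At Wnt5a the summit lies in an exon, in the transcribed leader, and only 30 bases around the word are given.
Dkk2, chr3:131794974-131795174: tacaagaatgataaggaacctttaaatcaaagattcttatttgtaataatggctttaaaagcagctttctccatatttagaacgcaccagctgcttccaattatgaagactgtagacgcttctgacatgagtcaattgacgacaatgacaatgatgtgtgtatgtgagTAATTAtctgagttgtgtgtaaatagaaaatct
Dkk3, chr7:119299840-119300040: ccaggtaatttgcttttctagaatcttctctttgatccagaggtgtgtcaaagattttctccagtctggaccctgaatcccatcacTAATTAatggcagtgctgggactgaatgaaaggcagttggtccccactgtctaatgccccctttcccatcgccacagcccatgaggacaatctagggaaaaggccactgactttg
Dkk3, chr7:119286208-119286408: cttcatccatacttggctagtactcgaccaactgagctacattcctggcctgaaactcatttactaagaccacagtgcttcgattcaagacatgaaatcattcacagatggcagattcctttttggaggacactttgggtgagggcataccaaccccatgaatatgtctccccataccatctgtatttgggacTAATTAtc
Dkk3, chr7:119283990-119284190: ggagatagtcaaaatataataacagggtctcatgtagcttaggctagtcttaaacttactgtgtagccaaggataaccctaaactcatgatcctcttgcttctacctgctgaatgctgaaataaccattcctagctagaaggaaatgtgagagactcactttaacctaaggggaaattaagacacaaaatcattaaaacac
Dkk3, chr7:119279074-119279274: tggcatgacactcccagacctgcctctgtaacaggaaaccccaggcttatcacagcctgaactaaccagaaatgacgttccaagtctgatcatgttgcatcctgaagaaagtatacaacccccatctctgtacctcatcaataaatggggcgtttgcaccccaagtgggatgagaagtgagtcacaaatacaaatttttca
Wnt5a, chr14:29318912-29318941: gttggaaagcccTAATTAccgccgtcgctg

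The word was present near 3 of the 5 MMTV-CAF summits (60.0%, 23.1 to 88.2) and near the wound one. Over the whole lists it was near 35.5% of MMTV-CAF, 41.9% of wound and 69.1% of MEF summits. Within 50 bp only 1 of the 5 (20.0%) and not the Wnt5a summit had it. Of the 7 members with a promoter in the RefSeq set (GRCm38.p6, 250 bases before to 50 after the start), none of 12 promoters held TAATTA, which 5.29% of all 32851 promoters did. CTTTGAT, a word recognised by TCF and LEF factors, was found on either strand in 1 of the 12, at Wnt5b, and in 3.73% of all. These matches describe the letters in the windows only.

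The Dkk2 summit was the strongest, with a −log10 p of 14.3 and rank 688 of 8000, and lay 46.8 kb into the gene in an intron, with no H3K27ac summit of any list within 500 bp. The Dkk3 summits, all intronic, lay 2.63, 16.3, 18.5 and 23.4 kb from the start with −log10 p of 5.18, 12.4, 6.24 and 7.17. Only the one at 2.63 kb had an H3K27ac summit of MMTV-CAF WT within 500 bp. The ones at 16.3 and 23.4 kb had H3K27ac in MMTV-CAF SG and in 4 other lists, and the one at 18.5 kb in none. On both sides of the one at 16.3 kb, MMTV-CAF WT had summits just beyond 500 bp, at 16.8 and 15.6 kb. Their −log10 p was 29.4 and 49.5, against 9.63 for the MMTV-CAF SG summit within 500 bp. Thus 1 of 5 bound summits at the members (20.0%, 3.62 to 62.4) lay beside WT H3K27ac, against 45.4% of the list, and the share was 0 at a distance of 250 bp and 40.0% at 1 kb. The Wnt5a summit had a −log10 p of 5.39 and rank 4142 of 5698. It lay 0.212 kb upstream of an internal start, inside the H3K4me3 region of wound WT, and the only H3K27ac summit within 500 bp was that of the same cells.

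The WT types differed at several members, with strain and type inseparable for MMTV-CAF. Relative to MEF WT, MMTV-CAF WT had wider H3K4me3 at Wnt2 and Wnt5a (8.90% of all genes) and narrower at Wnt5b, Sfrp1 and Axin2 (5.59%). By summed width 1 member was wider, since Wnt5a had a second region over its downstream starts in MEF WT, where its regions summed to 7708 bp, against 8220 bp with MMTV-CAF WT. Without division by the median ratio 4 were wider, and Axin2 (−0.39) was not past 1.5-fold. Relative to MEF WT, wound WT had wider regions at Wnt2 and Wnt9a (4.88%) and a narrower one at Sfrp1 (4.91%). Relative to MMTV-CAF WT, wound WT was wider at Wnt5b and Axin2 (6.35%) and narrower at Wnt5a (9.25%), where by summed width no member was narrower. The summed H3K27ac score of MMTV-CAF WT was higher than that of MEF WT at Wnt9a, Dkk2 and Dkk3 (20.3%) and lower at Axin2 (16.7%). Against MMTV-CAF WT, the score of wound WT was lower at Dkk3 (relative log2 ratio −2.14, −3.19 undivided) and Wnt9a (−1.75 and −2.80; 13.6%). It was higher at Axin2 (2.40 and 1.35) and Dkk2 (1.11, but 0.06 undivided; 23.9%). Against MEF WT, wound WT was higher at Dkk2 (2.51, and 1.73 undivided) and at Wnt5b (0.64, but −0.14 undivided; 25.9%), and lower at Dkk3 (−0.77 and −1.55; 1593 of 12721 genes). Undivided, 1 member was higher and 3 were lower. Sfrp1 had no H3K27ac in any WT list, and Sfrp2 and Lef1 had it in MMTV-CAF WT alone.

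The other 58 genes of the pathway were counted by role. Of 15 further ligands, 5, 1 and 5 had H3K4me3 over a TSS in MEF WT, KI and SG, 4 and 7 for MMTV-CAF (WT, then SG), and 5 and 6 for wound fibroblasts (WT, then SG). Of 11 further secreted modulators the numbers were 5, 4 and 5, then 5 and 3, then 7 and 7. Over all coding genes the marked share was 41.5% (MEF KI) to 55.3% (wound SG). Receptors and secretion factors were marked in 17, 12 and 17 of 19 in MEF, 17 and 18 for MMTV-CAF, and 17 and 16 for wound fibroblasts, and so were 9 to 13 of 13 intracellular components. Between SG and WT in MMTV-CAF, 1 of 4 further ligands and 2 of 3 secreted modulators marked in both were wider and 0 narrower, against 5.59% wider and 4.80% narrower over all genes. Of 17 receptor genes, 1 was wider and 1 narrower, and of 11 intracellular genes, 1 was wider and 2 narrower. By the naming rule, Fzd2 and Fzd7 (Wnt receptors), Gsk3b (the kinase of the destruction complex) and Tcf7l2 (a TCF factor) had regions over 4 kb in all 3 WT lists. For WT cells of MEF, MMTV-CAF and wound origin, in that order, these measured 5734, 7231 and 5897 bp at Fzd2 and 7428, 6175 and 7459 bp at Fzd7. They were 6235, 7804 and 6951 bp at Gsk3b and 4964, 10638 and 4382 bp at Tcf7l2.

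Among the 58 genes, 3 had a Prrx1 summit in all 3 types (2.95% of all genes did) and were named for it, namely Rspo2, Tcf7l1 and Tcf7l2, with 1, 1 and 2 summits at Rspo2 in MEF, MMTV-CAF and wound fibroblasts, 3, 3 and 2 at Tcf7l1, and 1, 5 and 1 at Tcf7l2. Rspo2, a secreted enhancer of Wnt signalling, had an H3K4me3 region of 1334 bp and 3 H3K27ac summits in MMTV-CAF WT and neither in SG. In MEF its region measured 2641, 5254 and 867 bp (WT, KI, then SG), and in wound fibroblasts 1299 and 1813 bp. Tcf7l1, a TCF repressor, kept its region in all lists, with 3184 and 3133 bp for MMTV-CAF (WT, then SG).

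For each member the gene with the most similar pattern was sought over 14 rank percentiles, 7 of H3K4me3 width and 7 of H3K27ac sum, by Euclidean distance in percentile points. Dkk3 had the closest neighbour, Chchd10, at 19.2. Its 7 width percentiles are those of every gene without H3K4me3 over a TSS, so its distance is not comparable with those of the other members. Wnt9a was nearest to Hes6 at 24.8, Wnt5b to Ano1 at 25.2, Axin2 to Dnmt3a at 33.2, Wnt2 to 2310046K01Rik at 35.4 and Lef1 to Cebpa at 38.7. Larger distances were those of Sfrp1 (Fgf15, 39.3), Wnt5a (Prss23, 45.5), Sfrp2 (Slc6a17, 54.6) and Dkk2 (Zbtb46, 66.9). These distances describe 7 libraries per mark that share their strength and size across all genes.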

How the data were processed

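ChIP-seq had been performed for H3K27ac, H3K4me3 and Prrx1, with 1 library per mark and group. The authors trimmed reads (Trimmomatic), aligned them to mm9 (Bowtie), and ran MACS2 on each library with its input as background. The study describes the Prrx1 ChIP as duplicated, and whether its lists pool these is not stated. For H3K27ac and Prrx1 the authors gave single-base summits, each with its −log10 p-value. For H3K4me3 the deposited entries are broad intervals with a fold (the ratio of ChIP to input), the −log10 of p and of q, and a whole-number score that MACS2 derives from q and that was not used. The H3K27ac lists start at the stated −log10 p of 5, but the Prrx1 lists reach down to 3.00. Library totals were not used, so depth is unknown, and list size and −log10 p are its only view. Prrx1 lists of KI or SG cells were not analysed here, so antibody specificity was not checked. A further 7 samples are inputs.

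The members and pathway lists were chosen with earlier results of these data known. TSS were the starts of all GENCODE vM1 transcripts (NCBIM37, the same build as mm9), and a gene's width and fold are those of its widest region over a TSS. Windows were the gene with 10 kb each side. Clusters were made of H3K27ac summits less than 12.5 kb apart, and clusters beyond the point of unit slope on the curve of their summed −log10 p were called super-enhancers. A ratio was called past 1.5-fold after division by the median ratio (width) or the list totals (H3K27ac), over genes listed in both. Shares have Wilson 95% intervals for counting error only. Named genes were the members, and pathway genes with regions over 4 kb in all WT lists or Prrx1 summits in all Prrx1 lists. The functions were tested on simulated data. Alternatives were flanks of 0 and 50 kb, −log10 p of at least 10, lists of equal size, other distances, stitching within 5 kb, and undivided ratios. Python 3.11.15, numpy 2.4.6, pysam 0.24.0 and matplotlib 3.10.9 were used.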

Additional observations from a re-analysis of the deposited data

Results flagged for a closer look

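At Dkk3 the summed H3K27ac score moved past 1.5-fold in opposite directions upon Prrx1 deletion in different fibroblast types. The log2 ratio of SG to WT, relative to the list totals, was −1.37 in MMTV-CAF and 0.83 in wound fibroblasts. Without division by the list totals the ratios were −1.07 and 1.51. Each side is 1 library against 1, and the difference was not tested. The MMTV-CAF WT list carried 4 Prrx1 summits at Dkk3 and the wound one 0.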

How the results depend on the processing

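Among the alternative values, 243 stayed within 1.5 times the reported count or within its interval and 61 did not. The causes were not tested. No paired analysis was possible because each group has 1 library, and for the same reason no library could be left out. No Prrx1 share could be given for MEF, where the members have 0 summits. With flanks of 50 kb, the H3K27ac summits at the members in MEF WT, KI and SG were 33, 23 and 41, for MMTV-CAF (WT, then SG) 66 and 64, and for wound fibroblasts (WT, then SG) 24 and 37; 6 members had a summit in KI; Prrx1 summits numbered 9 at 5 members in MMTV-CAF and 2 at 2 in wound fibroblasts. The lower H3K27ac calls then became 2 in KI, 2 in MEF SG, 1 in wound SG and 0 in wound WT against MEF WT, which had 1 higher call. With lists of equal size, H3K27ac summits were 10 and 13 in MEF WT and SG, 14 and 9 for MMTV-CAF (WT, then SG) and 12 in wound SG, at 4 members for WT of MEF (3 for KI), 5 for WT of MMTV-CAF and 4 for SG of wound fibroblasts. In the same setting 5 members had H3K4me3 at a TSS in MMTV-CAF SG, 28.6% of MMTV-CAF WT summits were kept, 73.3% of KI summits had none in WT, and Prrx1 summits fell to 2 in MMTV-CAF and 0, at 0 members, in wound fibroblasts. At a −log10 p of at least 10, members with H3K4me3 over a TSS numbered 0 in KI, 5 in MMTV-CAF SG and 4 in wound SG, and Prrx1 summits again 2 and 0, the latter at 0 members. Counting regions within 1 kb of a TSS gave 8 members in KI, and, as an alternative chosen after seeing the data, 2 members without their WT region in KI and 0 in MMTV-CAF SG. Among the widest 5% of regions were 0 members in MEF WT and 1 in MMTV-CAF SG. With the 500 top clusters 0 members had a super-enhancer in MMTV-CAF SG. At 250 bp the share of Prrx1 summits beside H3K27ac was 0 in MMTV-CAF (40.0% at 1 kb) and 0 in wound fibroblasts, and within 50 bp TAATTA was found at 20.0% and 0. Without division by the list totals, higher H3K27ac calls were 0 in KI, 2 in wound SG, 1 in wound WT against MEF WT and 1 against MMTV-CAF WT, and lower calls 0 in MEF SG, 0 in wound SG and 3 in wound WT against MEF WT. By number of summits, lower calls were 0 in MEF SG and 1 in wound SG, which had 2 higher calls. Without division by the median ratio, 4 members rather than 2 were wider in MMTV-CAF WT than in MEF WT and 2 rather than 1 narrower in wound WT than in MMTV-CAF WT; by summed width these were 1 and 0.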

Other observations

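Outside the annotated starts, a second H3K4me3 region lay upstream of Lef1 in all lists but MEF KI. It measured 527 bp in MEF WT and 776 bp in SG, 902 and 1151 bp for MMTV-CAF (WT, then SG), and 915 and 905 bp for wound fibroblasts (WT, then SG), at 3.62 to 4.07 kb from the nearest Lef1 start. MMTV-CAF SG also had H3K27ac with a −log10 p of 17.0 and an H3K4me3 region of 757 bp at 26.4 and 26.5 kb downstream of an internal Lef1 start, where MMTV-CAF WT had neither. Wound SG had H3K27ac at the same site, with a −log10 p of 9.70.

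Downstream of Wnt2, at about 51.0 kb from its nearest start, H3K4me3 regions of 889 and 1555 bp were listed for MMTV-CAF (WT, then SG), with an H3K27ac summit in MMTV-CAF SG (−log10 p 24.4) and a weaker one in MEF WT. At Sfrp2, wound WT and SG had a second H3K4me3 region of 516 and 616 bp, 1.74 and 1.72 kb upstream of the nearest start. The wide MMTV-CAF SG region began at about the same place and ran on over the promoter.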
